A study of Mus musculus with 8 samples.

Results

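The spliceosome removes introns from pre-mRNA, and 39 genes for its core particles and for the proteins that guide it were followed through the last steps of meiosis and into the haploid phase of spermatogenesis, with and without the ubiquitin-conjugating enzyme HR6B. The genes were taken from a list of names. They encode small nuclear ribonucleoprotein (snRNP) proteins, PRPF proteins, the SF3 and U2AF factors, SR proteins and hnRNPs with related regulators. Of the 39 genes, 35 had a probe set annotated to that gene alone, among 18193 genes so measured on the array. Snrpd1, Snrpd2 and Snrpa lay only on probe sets shared with other genes, Srsf7 matched no named probe set, and these 4 genes were not analysed here. Each gene is represented by its probe set with the highest mean log2 value over all arrays, and all 35 had a signal of 100 or more on at least 4 arrays.

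In splicing, U1 snRNP pairs with the start of the intron, U2 snRNP with the help of U2AF settles on the branch point near its end, and the tri-snRNP of U4, U6 and U5 then joins and is rebuilt into the active enzyme. SR proteins bind exons and recruit these particles, whereas hnRNPs often bind silencer elements and block them. The testis is known for a rich repertoire of alternative transcripts, and round spermatids build up mRNAs that are stored for translation after transcription has stopped.

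Cells came from testes of male Hr6b-/- (knockout) and Hr6b+/+ (wild type) mice on an FVB background, above 20 backcross generations and 4 to 5 weeks of age. Hr6b is the gene now named Ube2b, and the knockout lacked it in every cell, so germ cells and their neighbours were both mutant. Round spermatids and late spermatocytes were separated by sedimentation and Percoll, with a stated purity above 80%, and RNA of each fraction was hybridised to Affymetrix whole-genome mouse arrays. Knockout spermatids, wild type spermatids, knockout spermatocytes and wild type spermatocytes had 2 arrays each, 8 in all. The study speaks of batches of cells of each kind, but no label ties a replicate number to a batch, and the number of mice behind an array is not given in the sources used here, so the p-values reflect just the variation among these arrays. Signal stands for the array value on a linear scale without a unit, a log2 fold change is the difference of group means on the log2 scale, and a gene is called higher or lower at an adjusted p under 0.05 from limma over 45037 probe sets. Differences between stages or genotypes could reflect fewer cells of a type or less RNA per cell, which cannot be told apart in such bulk samples.

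Ube2b, on its brightest probe set, had signals of 951 and 1061 in knockout spermatids and 4600 and 4612 in wild type spermatids, and of 833 and 824 in knockout spermatocytes and 2855 and 3349 in wild type spermatocytes, so both knockout groups had the lower signal. Replicate arrays correlated at r = 0.9947 to 0.9971. The median log2 value of expressed autosomal probe sets (signal of 100 or more on at least 4 arrays) was 8.14 and 8.22 in knockout spermatids, 8.38 and 8.40 in wild type spermatids, 8.81 and 8.76 in knockout spermatocytes and 8.73 and 8.79 in wild type spermatocytes. On these probe sets the spermatid arrays thus lay lower, and the knockout ones lowest. Over all probe sets the order was the opposite, with medians of 5.55 and 5.54 in knockout spermatids and 5.49 and 5.50 in wild type spermatids. The spermatocyte arrays had 5.43 to 5.46 there. The log2 difference between the 3-prime and 5-prime control probe sets of Actb was 0.66 to 0.95 in spermatids and 1.24 to 1.75 in spermatocytes, and that of Gapdh was 0.82 to 1.03 in spermatids and 0.16 to 0.80 in spermatocytes. All 18 round spermatid markers were higher in wild type spermatids than in wild type spermatocytes, and of 15 spermatocyte markers 9 were lower and 3 higher. The summed signal of the 18 spermatid markers was 29059 to 38283 in knockout spermatocytes and 7397 to 11484 in wild type spermatocytes. The 16 Sertoli cell markers summed to 1695 to 1709 in knockout spermatids, 1068 to 1156 in wild type spermatids, 6605 to 8709 in knockout spermatocytes and 6872 to 8976 in wild type spermatocytes, and the 14 spermatogonial markers to 2151 to 2385 in knockout spermatids, 2158 to 2294 in wild type spermatids, 11725 to 12695 in knockout spermatocytes and 12776 to 15729 in wild type spermatocytes. Of the Sertoli cell markers 8 were lower and 4 higher in knockout spermatids than in knockout spermatocytes, and 9 lower and 1 higher in wild type. Of the spermatogonial markers 4 were lower and 6 higher in the knockout, and 7 lower and 2 higher in wild type. Of both lists, 9 to 12 markers were under a signal of 100 in each group, among them the defining genes Sox9, Wt1, Kit and Gfra1 throughout.

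The main difference among the splicing genes lay between the stages. Of the 35 genes, 33 were lower and 1 was higher in knockout spermatids than in knockout spermatocytes, and 31 were lower and 1 higher in wild type spermatids than in wild type spermatocytes. In the knockout, 94.3% of the genes were thus lower, against 28.7% of all probe sets and 50.4% of the 9989 genes with a signal of 100 or more on at least 4 arrays (called comparable here), and 34.2% and 35.3% of these were higher. In wild type, 88.6% were lower, against 27.3% of all probe sets and 45.7% of the genes with a comparable signal, while 26% and 37.4% of these were higher. The median log2 fold change was -1.497 for knockout cells and -1.31 for wild type cells, with -0.35 and -0.17 over the genes with a comparable signal. With equal medians of the arrays the medians were -0.89 and -0.94, where all probe sets had medians of 0.75 and 0.47, and with cyclic loess they were -0.90 and -0.95. The counts of lower genes were then 24 in the knockout and 26 in wild type with either scaling, against 19.3% and 20.8% of all probe sets with equal medians and 27% and 25.9% with cyclic loess. In the knockout 23 of the 35 genes were at least 2-fold lower, and in wild type 23 differed at least 2-fold, Hnrnpa1 upward and the others downward. The standard error of a fold change ranged from 0.105 to 0.204 over the 35 genes. Summed over the 35 genes, the signal was 57033 and 60484 on the knockout spermatid arrays, 69830 and 69538 on the wild type spermatid arrays, 139932 and 143425 on the knockout spermatocyte arrays and 139138 and 148322 on the wild type spermatocyte arrays. In the plot of signals per array, spermatids and spermatocytes of the same genotype do not overlap for any of the 35 genes. In the knockout, both spermatid arrays lay below in 34 genes and above in 1, against 34% below and 49.3% above of all probe sets, and 55.5% and 39.6% of the genes with a comparable signal. In wild type, it was 33 genes below and 2 above, against 33.4% and 44.5% of all probe sets, and 50.7% and 42.5% of the genes with a comparable signal. Of the control differences above, that of Actb was lower in spermatids and that of Gapdh was higher. The sums of the spermatocyte, Sertoli cell and spermatogonial markers were lower in spermatids, though in the knockout 4 spermatogonial markers were called lower and 6 higher. The part of these controls and markers in the result was not tested.

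**Figure D1:**
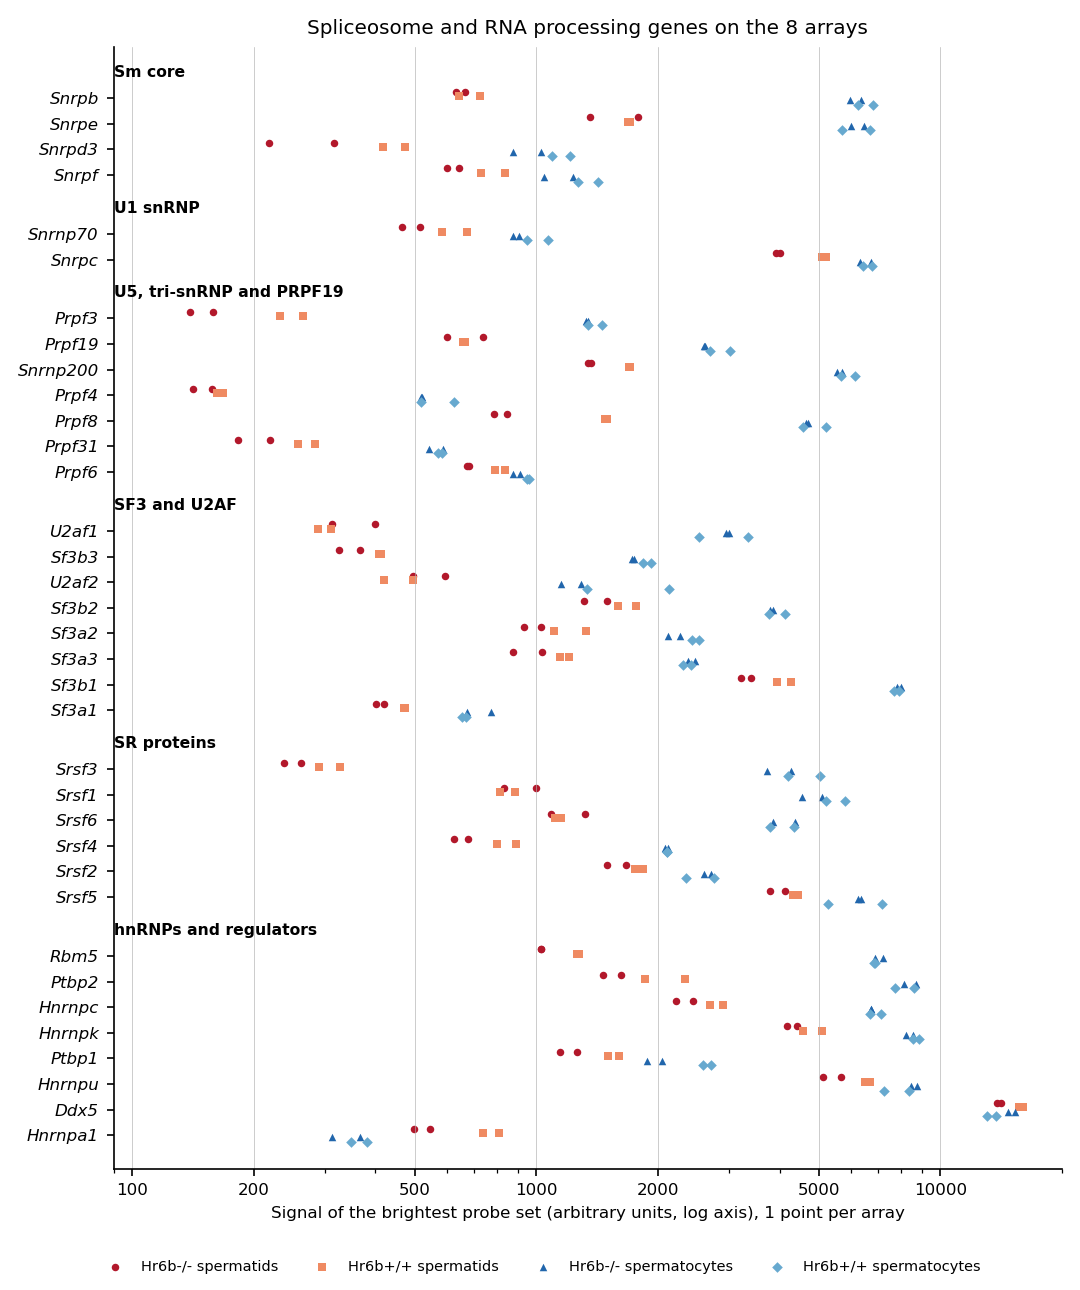
Signal of each of the 35 genes on the 8 arrays (log axis, arbitrary units), grouped by class and ordered within a class by the stage difference in wild type, with 1 point per array. The spermatid points lie left of the spermatocyte points except for Hnrnpa1, where they lie right, and Ddx5, where all groups lie close together.

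The Sm proteins form the ring around the spliceosomal U RNAs, and all 4 measured members were lower in spermatids of both genotypes, though with equal medians or cyclic loess Snrpf was not called in the knockout. Snrpb, which encodes SmB, had 666 and 632 in knockout spermatids and 644 and 728 in wild type spermatids, against 5965 and 6367 in knockout spermatocytes and 6256 and 6825 in wild type spermatocytes. Its log2 fold change between the stages was -3.25 between knockout cells and -3.26 between wild type cells (SE 0.12 for each), a 9.50-fold and a 9.55-fold lower signal. The genotypes thus overlapped in spermatids while the stages lay far apart. Snrpf, which encodes SmF, differed least, with 603 and 642 in knockout spermatids and 731 and 836 in wild type spermatids against 1045 and 1235 in knockout spermatocytes and 1269 and 1421 in wild type spermatocytes. Snrpe and Snrpd3, for SmE and SmD3, lay between, with log2 fold changes of -1.86 and -1.37 in wild type.

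The U1 proteins changed less. Snrnp70 encodes the U1 70K protein, and its stage difference was -0.86 for knockout cells and -0.68 for wild type cells on the log2 scale. Snrpc encodes U1-C, which steadies the pairing of U1 with the intron start, and had 4016 and 3931 in knockout spermatids and 5103 and 5205 in wild type spermatids, against 6739 and 6314 in knockout spermatocytes and 6758 and 6440 in wild type spermatocytes. Its difference of -0.72 in the knockout was called (adjusted p = 0.000211, limma), and that of -0.36 in wild type was close to the threshold (adjusted p = 0.0181). Leaving out either wild type spermatid array, or wild type spermatocyte replicate 1, ended the wild type call of Snrpc. With the arrays brought to equal medians the wild type difference of Snrpc was 0.014, and neither U1 gene was called in either genotype. With cyclic loess the knockout difference of Snrpc was the one of these that was called.

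In the group of the U5 and tri-snRNP proteins and PRPF19, all 7 genes were lower in knockout spermatids and 6 of 7 in wild type spermatids. Prpf3, for a protein of the U4/U6 particle, had 139 and 159 in knockout spermatids and 265 and 233 in wild type spermatids, against 1332 and 1341 in knockout spermatocytes and 1345 and 1458 in wild type spermatocytes. Its stage difference was -3.17 for knockout cells and -2.50 for wild type cells (SE 0.12). Prpf8, for the large U5 protein that cradles the catalytic centre, had 846 and 785 in knockout spermatids and 1498 and 1477 in wild type spermatids, against 4644 and 4717 in knockout spermatocytes and 4576 and 5222 in wild type spermatocytes. Here the spermatid arrays of the genotypes were apart from each other while the spermatocyte arrays overlapped. Snrnp200, for the helicase that unwinds U4 from U6, and Prpf4, for a partner of PRPF3, were at -1.79 in wild type, and Prpf31, for another U4/U6 protein, was at -1.10. Prpf19 encodes a ubiquitin ligase of the activated spliceosome and had a stage difference of -1.97 for knockout cells and -2.11 for wild type cells. Prpf6, whose protein bridges U5 and U4/U6, was the exception, with 681 and 674 in knockout spermatids and 789 and 835 in wild type spermatids, against 913 and 874 in knockout spermatocytes and 948 and 957 in wild type spermatocytes. Its difference of -0.23 in wild type was not called (adjusted p = 0.0958), and the called difference of -0.40 in the knockout was 0.21 with equal medians and 0.26 with cyclic loess, and lost its call without replicate 1 of the knockout spermatocytes.

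SF3A and SF3B belong to the U2 snRNP and hold the branch point, and U2AF binds the pyrimidine tract and the end of the intron. All 8 genes were lower in spermatids of both genotypes on the deposited scale, but with equal medians or cyclic loess Sf3a1 was called in neither genotype, and with cyclic loess U2af2 was not called in the knockout. U2af1, for the subunit at the intron end, had 313 and 398 in knockout spermatids and 310 and 288 in wild type spermatids, against 3002 and 2946 in knockout spermatocytes and 2522 and 3340 in wild type spermatocytes, giving a stage difference of -3.08 for knockout cells and -3.28 for wild type cells (SE 0.16, log2). Its partner U2af2 had 594 and 496 in knockout spermatids and 495 and 421 in wild type spermatids, against 1288 and 1154 in knockout spermatocytes and 2131 and 1336 in wild type spermatocytes. Replicate 1 of the wild type spermatocytes stood high for U2af2, and the wild type stage difference was -1.89 with it and -1.55 without it. Sf3b3 differed most among the SF3 genes, at -2.33 for knockout cells and -2.19 for wild type cells on the log2 scale. Sf3b2, Sf3a2, Sf3a3 and Sf3b1 differed by -1.23, -1.03, -1.01 and -0.92 in wild type. Sf3a1 differed least, with 419 and 401 in knockout spermatids and 474 and 472 in wild type spermatids, against 774 and 676 in knockout spermatocytes and 668 and 657 in wild type spermatocytes.

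SR proteins bind exonic enhancers, and all 6 of their measured genes were lower in spermatids of both genotypes on the deposited scale, while Srsf2 and Srsf5 were called in neither genotype with equal medians or cyclic loess. Srsf3, for the smallest classical SR protein, fell most of the 35 genes, with 237 and 262 in knockout spermatids and 290 and 327 in wild type spermatids, against 3726 and 4282 in knockout spermatocytes and 4197 and 5029 in wild type spermatocytes. That was -4.00 for knockout cells and -3.90 for wild type cells on the log2 scale (SE 0.14), a 14.9-fold lower signal in wild type spermatids. Srsf1, which activates many exons, had 833 and 996 in knockout spermatids and 886 and 811 in wild type spermatids, against 4557 and 5096 in knockout spermatocytes and 5213 and 5806 in wild type spermatocytes. Srsf6 and Srsf4 differed by -1.84 and -1.32 in wild type. Srsf2 and Srsf5 lay at the other end, at -0.50 and -0.48. Srsf5 had 3784 and 4131 in knockout spermatids and 4329 and 4456 in wild type spermatids, against 6358 and 6264 in knockout spermatocytes and 5269 and 7161 in wild type spermatocytes, and its wild type call ended when either wild type spermatid array or wild type spermatocyte replicate 2 was left out.

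The hnRNPs and regulators were the mixed class, with 6 of 8 lower and 1 higher in knockout spermatids, and 5 lower and 1 higher in wild type spermatids. Rbm5, a splicing regulator needed in mouse male germ cells, had 1025 and 1029 in knockout spermatids and 1274 and 1263 in wild type spermatids, against 6905 and 7195 in knockout spermatocytes and 6904 and 6843 in wild type spermatocytes, a difference of -2.78 for knockout cells and -2.44 for wild type cells (SE 0.11, log2). Ptbp2, a repressor of exons expressed in neurons and germ cells, differed by -2.45 for knockout cells and -1.97 for wild type cells, and its relative Ptbp1 by -0.71 and -0.76, a knockout difference that was not called with equal medians or cyclic loess. Hnrnpc, for a protein of the pre-mRNA particle, and Hnrnpk, which binds cytosine-rich RNA, differed by -1.31 and -0.85 in wild type. Hnrnpa1, a repressor of exons that also acts in mRNA export, went the other way, with 497 and 547 in knockout spermatids and 740 and 811 in wild type spermatids, against 313 and 367 in knockout spermatocytes and 348 and 381 in wild type spermatocytes. Its log2 fold change was 0.62 for knockout cells and 1.09 for wild type cells (adjusted p = 0.00174 and 3.41e-05, limma), and both values were above 0 with equal medians, cyclic loess and quantile normalization, but below 0 (-0.42 and -0.055) on a further, dim probe set. Another 3 probe sets that Hnrnpa1 shares with other genes were not analysed. Hnrnpu, for a nuclear matrix protein, was called in the knockout (-0.68) but not in wild type (-0.24, adjusted p = 0.125), and with equal medians or cyclic loess it was called in neither. Ddx5, an RNA helicase gene, had 13823 and 14135 in knockout spermatids and 15661 and 16050 in wild type spermatids, against 14712 and 15304 in knockout spermatocytes and 13760 and 13014 in wild type spermatocytes, and was called in neither genotype. With equal medians Ddx5 was called higher in spermatids of both genotypes, as were 69.3% of all probe sets in the knockout and 61.3% in wild type. With cyclic loess it was called higher in wild type, as were 24.4% of all probe sets.

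**Figure D2:**
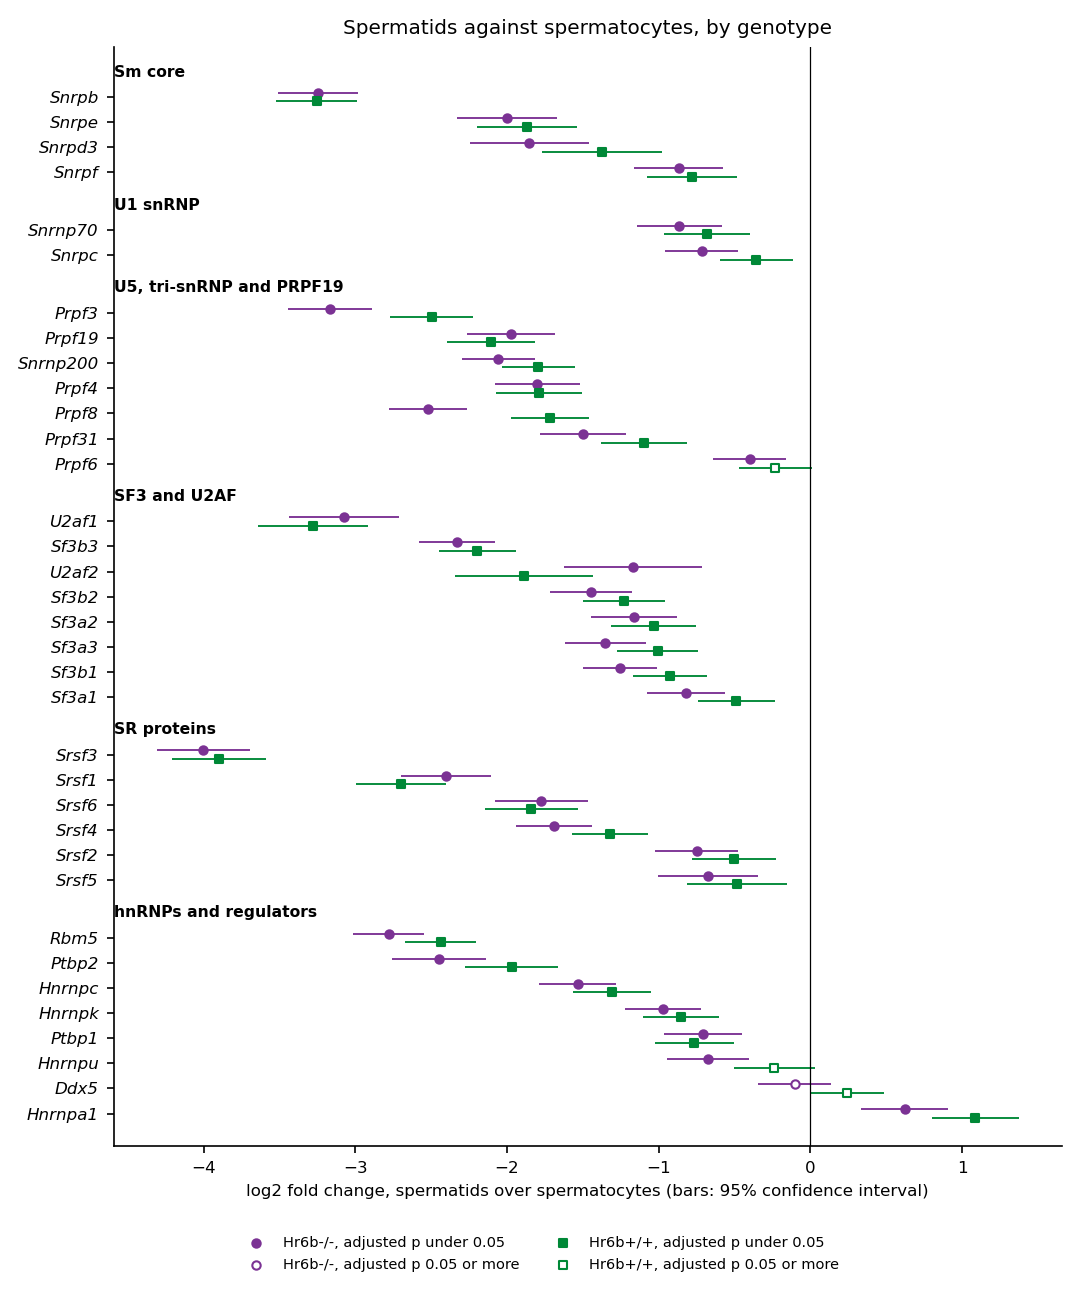
Log2 fold change of each gene in spermatids over spermatocytes, with the 95% confidence interval from limma, for knockout (circles) and wild type (squares). Nearly all points lie left of 0, from -4.00 for Srsf3 in the knockout, and Hnrnpa1 lies right of 0 at 0.62 (knockout) and 1.09 (wild type).

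The promoters of the genes were read from the RefSeq table of build GRCm38.p6, which held 41 windows of 33 of the 35 genes, from 250 bases before to 50 after the start site. The motif CCGGAAG, the core bound by ETS factors, was searched on both strands and stood in windows of 14 of the 33 genes, or 42.4%, against 9.93% of 27025 genes (8.86% of 32851 windows). The 27025 genes were taken whether or not they were expressed in these cells. Genes with the motif had large and small wild type stage differences, from -2.50 for Prpf3 to -0.23 for Prpf6 and 0.24 for Ddx5. Srsf3, at -3.90, lacked it. A relation of the motif to the stage difference was not tested. The median GC content was 59.0% in these windows and 52.7% in all, and its part in this count was not tested. The other motifs searched on both strands were the palindrome of Kaiso (ZBTB33) and the cyclic AMP response element TGACGTCA, found in none of the 33 genes and in 0.525% and 2.03% of all genes, and the NRF1 palindrome, found for Snrnp70 only and in 1.07% of all genes. A match is a description of the letters. The 250 bases before the start site are given for Prpf3 and Snrpc, which hold CCGGAAG (in capitals) and were lower in knockout spermatids, for Srsf3, which fell most between the stages, and for Prpf8, which differed most by genotype. Srsf3 and Prpf8 hold none of the 4 motifs in these bases.
Prpf3, chr3:95855754-95856003, minus strand: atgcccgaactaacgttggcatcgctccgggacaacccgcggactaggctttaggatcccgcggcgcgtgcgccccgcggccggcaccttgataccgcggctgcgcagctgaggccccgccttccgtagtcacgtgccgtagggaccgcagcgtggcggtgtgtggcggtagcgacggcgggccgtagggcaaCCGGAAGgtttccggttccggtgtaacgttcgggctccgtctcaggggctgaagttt
Snrpc, chr17:27839837-27840086, plus strand: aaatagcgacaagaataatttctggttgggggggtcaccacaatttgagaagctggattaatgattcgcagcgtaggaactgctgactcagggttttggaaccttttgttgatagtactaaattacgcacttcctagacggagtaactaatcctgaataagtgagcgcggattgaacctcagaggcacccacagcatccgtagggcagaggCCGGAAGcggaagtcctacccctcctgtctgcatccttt
Srsf3, chr17:29032410-29032659, plus strand: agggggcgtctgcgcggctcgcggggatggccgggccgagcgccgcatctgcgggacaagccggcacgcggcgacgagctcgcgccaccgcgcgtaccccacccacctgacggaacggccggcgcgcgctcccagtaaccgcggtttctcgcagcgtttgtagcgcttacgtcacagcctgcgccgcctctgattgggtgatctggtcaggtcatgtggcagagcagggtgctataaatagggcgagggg
Prpf8, chr11:75486527-75486776, plus strand: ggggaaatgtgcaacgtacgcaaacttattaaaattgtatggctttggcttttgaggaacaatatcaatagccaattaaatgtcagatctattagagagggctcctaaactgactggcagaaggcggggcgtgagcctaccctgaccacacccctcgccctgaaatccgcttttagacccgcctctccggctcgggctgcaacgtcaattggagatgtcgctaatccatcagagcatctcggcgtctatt

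The stage difference of a gene varied with the probe set that read it, about as often as for genes across the whole array. The 35 genes had 106 probe sets of their own, 93 of them with a signal of 100 or more on at least 4 arrays, and 26 genes had at least 2 such sets. In 18 of the 26 genes every such probe set was called lower in wild type spermatids than in wild type spermatocytes. Within a gene, the wild type stage difference spanned at least 1 log2 unit in 13 genes and at least 2 in 8 genes. Such counts were not made over all genes. However, 11 of the further sets were under a signal of 100 on both wild type spermatid arrays, and without them 21 genes had at least 2 sets, with a span of at least 1 in 9 and of at least 2 in 5. Tested in limma on the log2 difference of the probe sets of a gene, a comparison chosen after the data were seen, 38 of 58 further probe sets differed in stage effect from the brightest set of their gene in the knockout, or 65.5%, against 60.7% of 5755 further probe sets of all genes. The count was 25 without replicate 1 of the knockout spermatids. In wild type 32 of 58 differed, or 55.2%, against 60.6%. Both shares lie near the background, and both counts include the 11 dim sets.

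Hnrnpk had the widest span. Its brightest probe set had 4181 and 4410 in knockout spermatids and 5083 and 4583 in wild type spermatids, against 8236 and 8574 in knockout spermatocytes and 8570 and 8870 in wild type spermatocytes. A further set of Hnrnpk (1423684_at) had 112 and 129 in knockout spermatids and 173 and 170 in wild type spermatids, against 2379 and 2714 in knockout spermatocytes and 3211 and 3669 in wild type spermatocytes, a wild type difference of -4.32 where the brightest set gave -0.85. Srsf2 spanned from -3.08 on one set (1427504_s_at) to 0.28 on another (1427816_at), around -0.50 on the brightest. For Sf3b1, 3 sets lay between -1.06 and -0.92. Its dimmest set gives no reliable fold, with 17 and 21 in knockout spermatids and 16 and 22 in wild type spermatids against 288 and 357 in knockout spermatocytes and 290 and 422 in wild type spermatocytes. For Srsf3, the 4 sets not under 100 on both wild type spermatid arrays differed by -4.22 to -1.11 in wild type. Ptbp1 turned sign between its sets, at -0.76 on the brightest and 0.58 on the other. Where in the transcripts the probe sets lie was not analysed here.

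**Figure D3:**
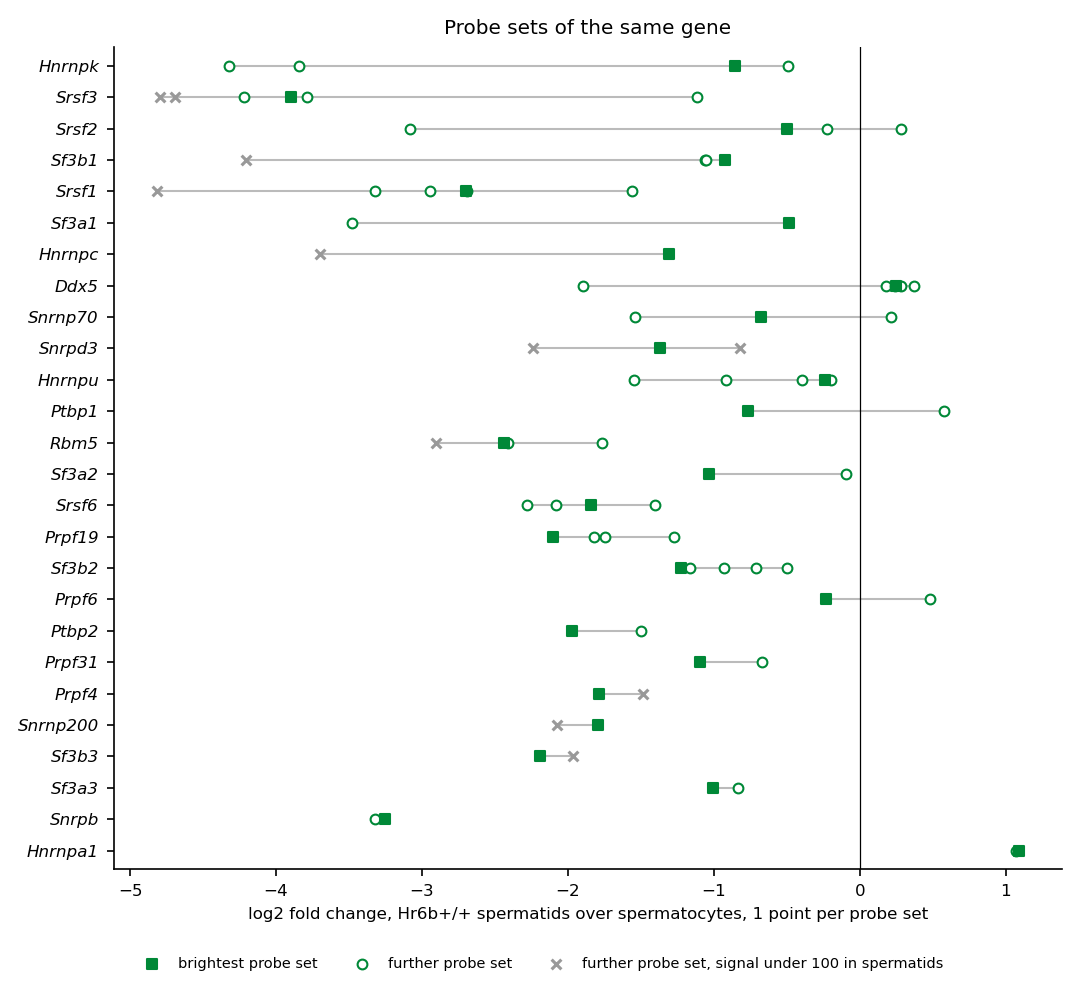
Log2 fold change in wild type spermatids over spermatocytes for each probe set of the 26 genes with at least 2 sets of sufficient signal, ordered by the span within a gene. Filled squares mark the brightest set open circles the further ones and crosses the 11 further sets under a signal of 100 on both wild type spermatid arrays, and the sets of Hnrnpk reach from -4.32 to -0.49.

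Between the genotypes, differences were small. Of the 35 genes, 5 (Prpf8, Snrpd3, Prpf3, Hnrnpa1 and Snrpc) were called lower in knockout than in wild type spermatids and none was called higher. At an unadjusted p under 0.05 in limma, 19 were lower and 0 higher. The share of all probe sets at the unadjusted threshold was not computed, here or in the comparisons below, so these counts have no background. The 5 genes are 14.3% of the 35, against 9.63% of all probe sets and 21.1% of the genes with a comparable signal called lower, so the share lies between these backgrounds. Higher calls made up 4.83% of all probe sets and 7.29% of those genes. The median log2 fold change was -0.29, against 0.02 over all probe sets and -0.14 over the genes with a comparable signal. Both knockout arrays lay below both wild type arrays in 28 of 35 genes, where 27.4% of all probe sets and 49.6% of the genes with a comparable signal did so, and above in 2 (28.1% and 24.3%). By class, 1 of 4 Sm genes, 1 of 2 U1 genes, 2 of 7 U5 and tri-snRNP genes and 1 of 8 hnRNPs and regulators were called lower, and none of the 8 SF3 and U2AF or the 6 SR protein genes. None of the 35 genes changed 2-fold.

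Prpf8 differed most, with 846 and 785 in knockout spermatids and 1498 and 1477 in wild type spermatids, a log2 fold change of -0.87 (SE 0.12, adjusted p = 0.00148, limma). Snrpd3, for the ring protein SmD3, had 218 and 316 against 417 and 474 in wild type, or -0.76 (adjusted p = 0.0186), but its other probe sets were at 0.38 and -0.11 and the mean of its sets at -0.16 (adjusted p = 0.374). Prpf3 had 139 and 159 against 265 and 233, or -0.74 (adjusted p = 0.00408). The knockout arrays lay below the wild type arrays on the brightest set of each of these 3 genes, and replicate 1 of the knockout spermatids was the lower one for Snrpd3. Hnrnpa1 had 497 and 547 against 740 and 811, or -0.57 (adjusted p = 0.016), and its second bright probe set gave -0.75. Snrpc had 4016 and 3931 against 5103 and 5205, or -0.38 (adjusted p = 0.0453). Prpf31 lay just outside the threshold at -0.43 (adjusted p = 0.0502). Genes with the highest values in the knockout were U2af2 at 0.25 and U2af1 at 0.24 (adjusted p = 0.478 and 0.381, limma), and Srsf1, Srsf6 and Prpf19 were also above 0.

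The count rests on groups of only 2 arrays, on the scale of the spermatid arrays and on the probe set taken. The median over the 35 genes was -0.23 without knockout spermatid replicate 1 and -0.32 without replicate 2. It was -0.27 without wild type spermatid replicate 1 and -0.24 without replicate 2. The median of all probe sets was 0.01 to 0.02 in these fits. With equal medians of the expressed autosomal probe sets, the median over the 35 genes was -0.086 where the median of all probe sets was 0.23, and 3 genes were called lower (Snrpd3, Prpf8 and Prpf3), against 5.02% of all probe sets. With cyclic loess or quantile normalization 2 were called, Prpf8 and Prpf3, with medians of -0.061 and -0.12, against 5.5% and 6.92% of all probe sets. Those 2 genes were called lower in all 18 alternatives. Some of these could not move their fold changes, as each has 1 probe set and the spermatocyte arrays do not enter the spermatid means. With only the probe sets of sufficient signal tested 13 genes were called lower, against 26.1% of those probe sets, and with an intensity trend and robust prior 15, against 11.3% of all probe sets. The summed signal of the 16 Sertoli cell markers was 1695 to 1709 in knockout spermatids and 1068 to 1156 in wild type spermatids, 5 of the 16 were called higher, and 9 and 12 of them stayed under a signal of 100 in knockout and wild type spermatids. Spermatocyte markers summed to 30220 to 31924 in knockout spermatids and 37996 to 38183 in wild type spermatids, with 2 of 15 called lower. The part of these cells in the result was not tested.

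**Figure D4:**
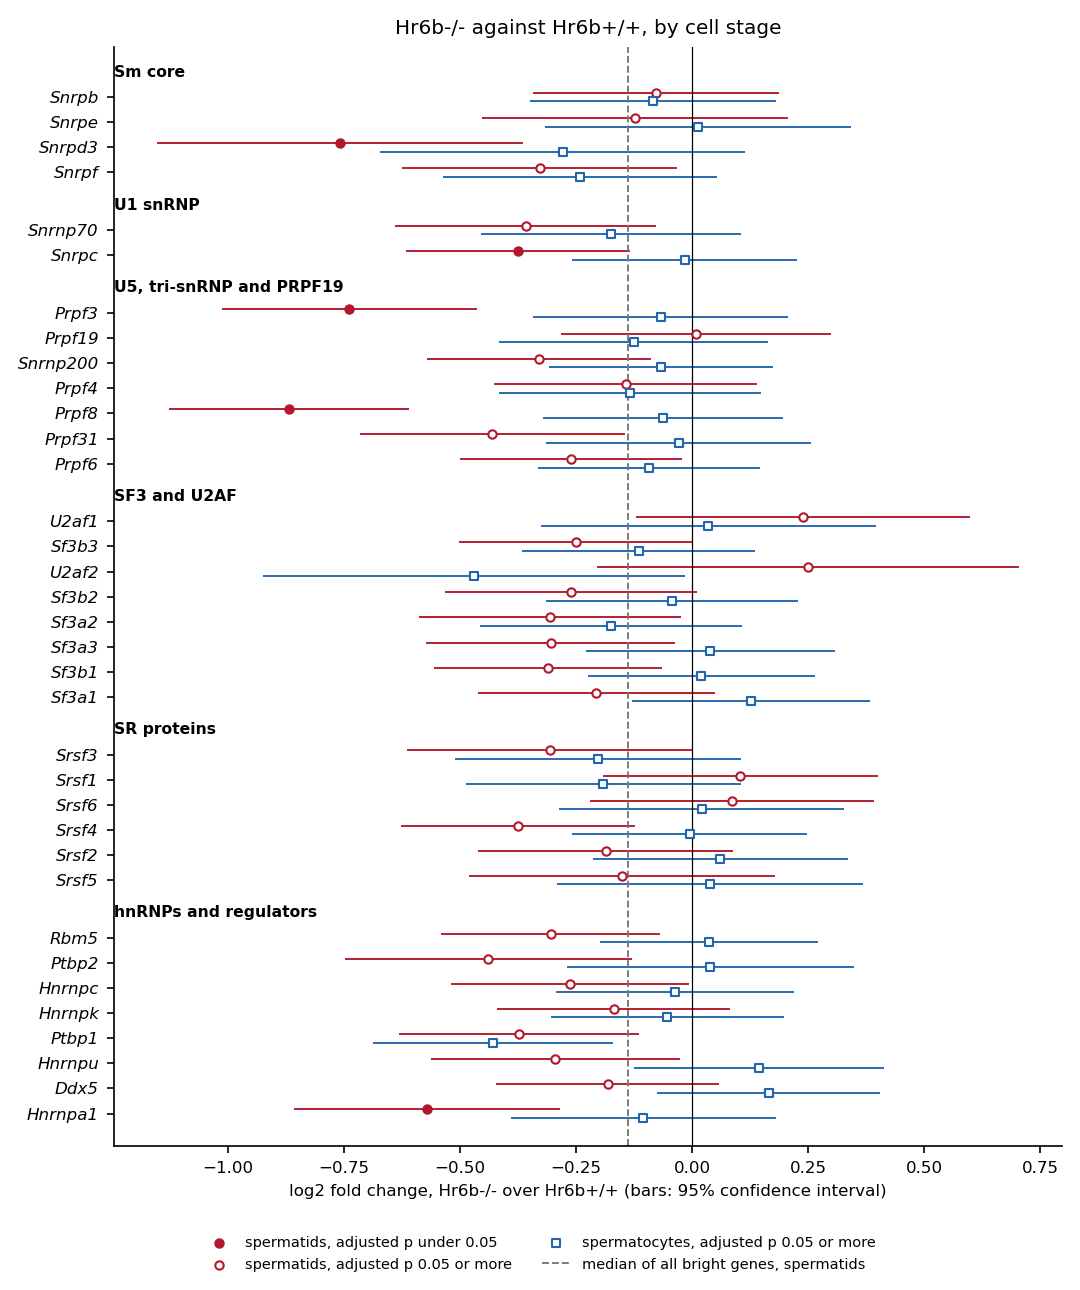
Log2 fold change of each gene in knockout over wild type, with the 95% confidence interval from limma, in spermatids (circles) and spermatocytes (squares). Filled points mark Prpf8, Snrpd3, Prpf3, Hnrnpa1 and Snrpc, called in spermatids, and the dashed line marks the spermatid median of -0.14 over the genes with a comparable signal.

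**Figure D5:**
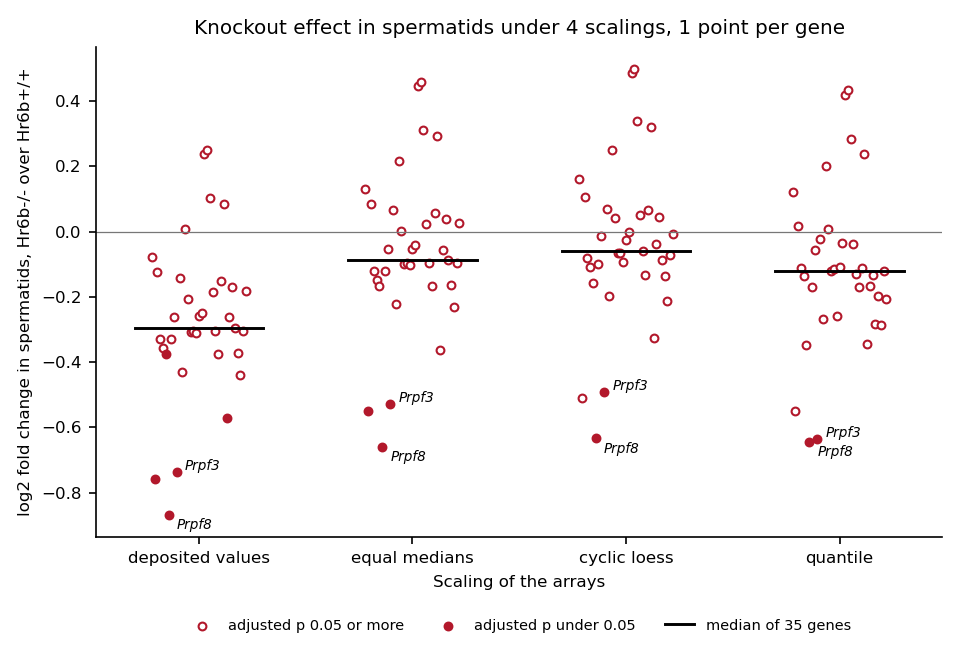
Log2 fold change in spermatids of knockout over wild type for the 35 genes under the deposited scale and 3 other scalings, with 1 point per gene and a bar at the median. The median is -0.29, -0.086, -0.061 and -0.12 from left to right, and Prpf8 and Prpf3 stay filled (adjusted p under 0.05) in each.

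Over all 93 probe sets of sufficient signal, 15 were lower and 1 was higher in knockout spermatids, or 16.1% lower against 20.8% of all such probe sets. The 15 belonged to 12 genes. Of the 93 sets, 18 were under a signal of 100 on both knockout spermatid arrays and 11 on both wild type spermatid arrays. The higher one, of Srsf1 (1428100_at), was among them in both, with 41 and 54 in knockout spermatids and 35 and 24 in wild type spermatids, so its direction is not read here, and the brightest set of Srsf1 was at 0.10. Srsf3 had 60 and 72 in knockout spermatids and 108 and 106 in wild type spermatids on a further set (1438215_at), and was at -0.31 on its brightest. That further set was thus under a signal of 100 in knockout spermatids but not in wild type spermatids. Prpf8 and Prpf3 were each read by a lone probe set of their own.

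In spermatocytes, no splicing gene was called lower or higher in the knockout by limma, where 0.413% of all probe sets were lower and 1.18% higher (0.561% and 3.85% of the genes with a comparable signal), and 2 were lower and 0 higher at an unadjusted p under 0.05. With the trend and robust prior 1 gene was called, Ptbp1. The median log2 fold change was -0.053 and the values ran from -0.47 for U2af2 to 0.17 for Ddx5. Ptbp1 had 1878 and 2047 in knockout spermatocytes and 2704 and 2580 in wild type spermatocytes, or -0.43 (adjusted p = 0.133). The arrays of the genotypes were apart for Ptbp1, while for 20 of the 35 genes they overlapped. Both knockout arrays lay below in 11 genes and above in 4, against 21.7% and 19.7% of all probe sets, and 20.5% and 30.1% of the genes with a comparable signal. The value of U2af2 rested on replicate 1 of the wild type spermatocytes and was -0.13 without it. The spermatid markers were higher in the knockout spermatocytes (10 of 18 called), and their part in these values was not tested.

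The genotype effect differed between the stages for Prpf8 alone, at -0.81 on the log2 scale as spermatid minus spermatocyte effect (adjusted p = 0.0292, limma interaction term). The share of 2.86% of the 35 genes stands against 3.14% of all probe sets and 7.54% of the genes with a comparable signal that were lower in this test, with 1.46% and 1.82% higher. Prpf3 was next at -0.67 (adjusted p = 0.0582). At an unadjusted p under 0.05, 9 genes were lower and 1 higher, the higher one being U2af2 at 0.72. U2af2 was called in this test when replicate 2 of the wild type spermatocytes was left out (1.06, adjusted p = 0.0348).

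Other genes of RNA processing also were mostly lower in spermatids. Of 198 further genes in 10 classes, listed by role, 182 were measured, and 130 were lower and 31 higher in knockout spermatids than in knockout spermatocytes, with 114 lower and 33 higher in wild type. The lower ones are 71.4% and 62.6%, against 50.4% and 45.7% of the genes with a comparable signal. Between the genotypes, 39 were lower and 8 higher in knockout spermatids, or 21.4% lower, at the background of 21.1% of the genes with a comparable signal, and none was called in spermatocytes (8 lower and 7 higher at an unadjusted p under 0.05 in limma). Clk1, for a kinase of SR proteins, had 313 and 361 in knockout spermatids and 613 and 689 in wild type spermatids, or -0.95. Smn1, which serves the assembly of Sm rings, had 212 and 199 against 381 and 375, or -0.88. These signals were apart between the genotypes. Rbm39, Hnrnpul2, Prpf18 and Snrnp35, for a U11 protein of the minor spliceosome, were at -0.92, -0.92, -0.80 and -0.80. The largest higher calls were Srsf12, Zmat5 of the minor spliceosome, Pcbp4, the SR protein kinase gene Srpk2, Sympk and Cstf2, at 0.64, 0.51, 0.49, 0.46, 0.45 and 0.45, and Srsf12 had signals of only 21.6 and 23.5 against 14.3 and 14.7 in wild type. Genes for 3-prime end formation went both ways between the stages, with 10 of 20 lower and 7 higher in the knockout and 9 lower and 10 higher in wild type, shares near those of the genes with a comparable signal. Cstf2, for a cleavage factor subunit, had 2250 and 2410 in knockout spermatids and 1576 and 1853 in wild type spermatids, against 79 and 85 in knockout spermatocytes and 58 and 52 in wild type spermatocytes, where the signals were thus dim.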

How the data were processed

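RNA of spermatids and spermatocytes was measured on 8 arrays. The authors deposited log2 values per probe set, background-corrected, normalized and summarized with RMA per the labels, and no version or further scaling is given in the sources used here. These values were used as deposited. A model with a mean for each of the 4 groups was fitted with limma 3.58.1 in R 4.3.3 (4 residual and 5.85 prior degrees of freedom), with Benjamini-Hochberg adjustment over 45037 probe sets. Genes were named from the platform annotation, with symbols updated from RefSeq. Of each gene the probe set with the highest mean was used. All 39 listed genes were to be named, and of the other RNA processing genes the 6 largest called changes in each direction in knockout spermatids. The members and lists were chosen with earlier results of these data known. The fit was tested on simulated data, where it recovered 73% of 100 changes of 1 log2 unit in the knockout spermatid comparison on 45037 probe sets, and 96% of 100 changes of 2. Alternatives were equal medians, cyclic loess, quantile normalization, a minimum signal, a trended and robust prior, 1 stage alone, a replicate block, other choices of probe set and leaving out each array. Signals are 2 to the power of the deposited log2 value. The number of arrays limits the precision. Tables were joined with Python 3.11.15 and pandas 2.3.3.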

Additional observations from a re-analysis of the deposited data

Results flagged for a closer look

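Prpf8 was the only one of the 35 splicing genes whose knockout effect differed between the stages by limma's interaction term. Its log2 fold change was -0.87 in spermatids and -0.06 in spermatocytes, a difference of -0.81 (adjusted p = 0.0292). All 4 spermatid arrays showed the direction, with 846 and 785 in knockout spermatids below 1498 and 1477 in wild type spermatids. The call held in 5 of 17 alternatives and was lost in the other 12, with an adjusted p from 0.00457 to 0.125.

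Of the 182 other RNA processing genes the same test called 5 lower (2.75%) and 1 higher (0.549%). That stands against 3.14% and 1.46% of all probe sets and 7.54% and 1.82% of the genes with a comparable signal, so both shares lie below these backgrounds. Clk1 had -0.95 in spermatids and 0.18 in spermatocytes, a difference of -1.14 (adjusted p = 0.014). Smn1 had -0.88 and 0.03, a difference of -0.91 (adjusted p = 0.0179). Zmat5 had 0.51 and -0.22, a difference of 0.73 (adjusted p = 0.0328). The others were Prpf38a, Ptbp3 and Pcf11, with differences of -0.75, -0.70 and -0.68. Groups of 2 arrays are too small to test an array for standing apart from its group.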

How the results depend on the processing

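Of 3045 single-gene values under the alternatives, 2917 stayed on their side of the threshold, 73 fell short of it and 42 passed it. The other 13 turned sign and were called before or after the change. A change of sign between values not called counts among the 2917. The 2917 also hold values whose fold change could not move, as when the array left out lies outside the comparison or a gene has 1 probe set. Of 630 values for the knockout effect in spermatocytes, where no gene was called, 629 are among them. The tally is thus no measure of how firm the calls are. In knockout against wild type spermatids, 30 genes were below 0 on the deposited scale, 22 with equal medians and 23 with cyclic loess. The count of splicing genes lower in knockout spermatids (5) was 3 with equal medians, 2 with cyclic loess and with quantile normalization, 13 with a minimum signal of 100 and 15 with the trended prior. It was 8 with the mean of all probe sets, where 12.8% of all genes were called lower. The median there (-0.29) was -0.086 with equal medians, -0.061 with cyclic loess, -0.12 with quantile normalization and -0.21 with the mean of all probe sets, and -0.32 to -0.23 without an array. In spermatocytes the count lower (0) was 1 with the trended prior and 0 without any array. The count higher in spermatids than in spermatocytes (1 in each genotype) was 2 in wild type with equal medians, cyclic loess, the minimum signal and the trended prior. In the knockout it was 2 with equal medians and 3 with the brightest plain probe set. With equal medians 61.3% of all probe sets were called higher in wild type spermatids and 69.3% in knockout spermatids. The counts lower were 32 to 33 in the knockout and 29 to 31 in wild type without an array, and 24 in the knockout and 26 in wild type with equal medians or cyclic loess. Equal medians placed the median of all probe sets at 0.75 for the knockout and 0.47 for wild type in these comparisons, where the deposited values gave 0.14 and 0.10.

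The count with a genotype effect that differed between the stages (1) was 0 with equal medians, cyclic loess, quantile normalization, the replicate block and the crossed replicate block, 2 with the minimum signal and with the mean of all probe sets, 5 with the trended prior, and 0 to 2 without an array. Of the 58 further probe sets, the count that differed from the brightest in the knockout (38) was 25 to 40 without an array, and in wild type (32) it was 23 to 34.

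The 13 values that turned sign with a call before or after were all stage differences. With equal medians they were Snrpc in wild type at 0.014 and Prpf6 and Ddx5 in the knockout at 0.21 and 0.50. With cyclic loess it was Prpf6 in the knockout at 0.26. With the mean of all probe sets it was Ptbp1, at 0.14 for knockout cells and 0.013 for wild type cells. With the brightest plain probe set, knockout before wild type, they were Srsf2 at 0.62 and 0.28, Hnrnpa1 at -0.42 and -0.055 and Ptbp1 at 0.84 and 0.58. Ddx5 was at 0.52 in the knockout with that setting. Causes were not tested, other than that the last setting reads another probe set.

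No label ties the replicate numbers to a batch, and the deviations of arrays with the same number correlated at -0.101 in spermatids and 0.0309 in spermatocytes. With the replicate number as a block, 4 splicing genes were lower in knockout spermatids, and with the numbers crossed, which was tried only after seeing the data, also 4. In spermatids Snrpd3 was called in 12, Hnrnpa1 in 12 and Snrpc in 5 of 18 alternatives, and Prpf8 and Prpf3 in all 18. For Prpf8 and Prpf3, each with a lone probe set, the other choices of probe set could not move the fold change. Dim probe sets, such as those of Srsf3, Sf3b1 and Srsf1 in spermatids, limit what can be read from their folds.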
